A study of Mus musculus with 16 samples.

Results

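The regions described here are stretches of open chromatin that were called as peaks in none of the 4 old and in all 4 young libraries of haematopoietic stem cells (HSCs) recovered after transplantation. They number 513 of 33773 regions in all, or 1.52%, and the reverse pattern, called in all 4 old and in no young library after transplantation, was found at 0 regions (0%). The regions were chosen by these calls in the 8 post libraries, so the calls are a description and carry no test. The regions were formed by merging peaks that overlapped by at least 1 bp on chromosomes 1 to 19 and X, and a region was kept where at least 2 of the 16 libraries had called it.

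Open chromatin was measured by ATAC-seq, in which a transposase cuts accessible DNA, on 10000 sorted HSCs of male mice per library, with 4 libraries in each of 4 groups. Old post and young post HSCs came from the pooled bone marrow of 5 lethally irradiated young BJ recipients, 3 months after each had received 1000 donor HSCs with 300000 Sca-1 depleted BJ helper marrow cells, and old pre and young pre HSCs came straight from the B6 donors. Each old library goes back to 1 donor aged 24 months, and each young library to a pool of 3 to 4 donors aged 8 to 12 weeks. By the series design, the post and pre libraries of an age and number share their donors, and since no label states a sort on a donor marker, a post library may also hold HSCs of recipient or helper origin.

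HSCs sustain blood formation for life, and transplantation into an irradiated recipient makes the few cells that engraft divide and rebuild the whole system. HSCs of old mice engraft less well per cell and yield relatively more myeloid than lymphoid progeny. Accessible chromatin outside promoters is often enhancer DNA, which varies more between cell states than promoters do.

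The lists held 23311, 28523, 31025 and 14030 peaks in old post libraries 1 to 4 and 32557, 30807, 31431 and 32032 in young post libraries 1 to 4. They held 27328, 30541, 17322 and 5711 peaks in old pre libraries and 28323, 23081, 21371 and 9636 in young pre libraries. Read counts were not used here, so the depth behind a call is unknown and an absent call is read as not called rather than as closed. In bulk cells, fewer cells with an open region and less opening per cell cannot be told apart. Of 12 HSC marker genes, all had a region at a gene end, and of their 17 such regions 8 to 17 were called in old post, 16 to 17 in young post, 5 to 16 in old pre and 7 to 16 in young pre libraries. No gene-end region was found for the natural killer markers Ncr1, Klrb1c and Klrk1 in any library. Of 5 B cell marker genes, Cd79b had 1 such region, called in some but not all libraries of old post, young post and young pre and in no old pre library, while Cd79a, Pax5 and Ms4a1 had none. Of 7 granulocyte and monocyte marker genes, Itgam had 1 such region, called in some young post libraries and in no library of the other 3 groups, while Elane, Mpo, Ly6g, S100a8, S100a9 and Csf1r had none. Of 3 erythroid marker regions, 2 to 3 were called in old post, 3 in young post, 2 to 3 in old pre and 2 to 3 in young pre libraries. The T cell list was seen through Cd3d alone, while Cd3e, Cd3g, Cd8a and Lck had no gene-end region. Of 6 megakaryocyte marker regions, 4 to 6 were called in old post, 5 to 6 in young post, 1 to 6 in old pre and 3 to 6 in young pre libraries. Of 5 stromal and endothelial marker regions, 3 to 4 were called in old post, 4 to 5 in young post, 0 to 4 in old pre and 1 to 5 in young pre libraries, and the part of such cells in the calls was not tested.

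Of the 513 regions, 46 (8.97%) held a RefSeq start site, 35 of them that of a protein-coding gene, against 9781 (29.0%) of all regions. The promoters below are those of the 5 such regions with the highest rank in young post libraries, and of Abcg2, which was chosen after its values were seen because it encodes the dye-efflux transporter that marks side-population stem cells. Each is the RefSeq window of GRCm38.p6 from 250 bases before to 50 bases after a start site, written 5′ to 3′ on the gene's strand, with capitals for any match to a searched motif. The regions at the Arhgef3, Disc1 and Abcg2 start sites lie inside the gene spans, 123177, 4734 and 11620 bp from the nearest gene end. Those start sites are thus internal to the spans. Arid1b lies at chr17:4994824-4995123 on the plus strand, Arhgef3 at chr14:27237760-27238059 (plus), Pmpca at chr2:26389098-26389397 (plus), Sct at chr7:141279084-141279383 (minus), Disc1 at chr8:125053945-125054244 (plus) and Abcg2 at chr6:58596422-58596721 (plus).
Arid1b: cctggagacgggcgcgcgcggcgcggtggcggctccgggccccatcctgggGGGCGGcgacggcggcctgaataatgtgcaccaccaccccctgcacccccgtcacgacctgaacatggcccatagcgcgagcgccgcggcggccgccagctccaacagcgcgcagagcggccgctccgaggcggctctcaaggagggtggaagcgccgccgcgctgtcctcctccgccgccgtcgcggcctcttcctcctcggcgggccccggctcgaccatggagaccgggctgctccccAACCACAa
Arhgef3: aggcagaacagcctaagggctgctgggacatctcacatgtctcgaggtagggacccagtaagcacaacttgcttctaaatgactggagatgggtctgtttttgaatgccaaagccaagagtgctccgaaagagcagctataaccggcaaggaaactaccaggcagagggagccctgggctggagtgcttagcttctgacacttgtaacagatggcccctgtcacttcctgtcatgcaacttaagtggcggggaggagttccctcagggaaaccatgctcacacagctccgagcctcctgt
Pmpca: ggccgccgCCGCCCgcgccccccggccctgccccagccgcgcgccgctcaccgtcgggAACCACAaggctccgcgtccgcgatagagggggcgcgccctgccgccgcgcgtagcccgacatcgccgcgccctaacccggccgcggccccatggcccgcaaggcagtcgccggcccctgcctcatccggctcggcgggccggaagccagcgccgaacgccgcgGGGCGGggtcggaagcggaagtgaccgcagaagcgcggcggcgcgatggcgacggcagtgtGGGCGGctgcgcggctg
Sct: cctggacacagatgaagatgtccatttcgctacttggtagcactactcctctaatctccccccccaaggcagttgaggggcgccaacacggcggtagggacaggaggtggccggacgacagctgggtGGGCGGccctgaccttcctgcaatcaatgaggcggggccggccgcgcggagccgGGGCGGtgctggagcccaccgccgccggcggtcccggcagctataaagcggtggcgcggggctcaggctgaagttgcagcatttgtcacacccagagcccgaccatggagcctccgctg
Disc1: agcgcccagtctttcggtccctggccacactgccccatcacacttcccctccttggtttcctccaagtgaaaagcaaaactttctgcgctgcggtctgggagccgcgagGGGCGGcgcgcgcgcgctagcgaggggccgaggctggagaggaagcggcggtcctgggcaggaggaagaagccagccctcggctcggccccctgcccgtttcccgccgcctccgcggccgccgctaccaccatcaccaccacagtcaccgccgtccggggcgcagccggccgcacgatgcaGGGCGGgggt
Abcg2: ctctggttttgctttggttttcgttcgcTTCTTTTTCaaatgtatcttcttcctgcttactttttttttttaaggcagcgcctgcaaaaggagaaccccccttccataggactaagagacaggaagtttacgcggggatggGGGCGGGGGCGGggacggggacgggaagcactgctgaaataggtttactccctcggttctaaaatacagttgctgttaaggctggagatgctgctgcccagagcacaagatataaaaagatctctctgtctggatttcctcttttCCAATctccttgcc

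The motifs were searched on both strands and were CCGGAAGT for ETS factors, TGTGGTT for RUNX, AGATAA for GATA factors, TGANTCA for AP-1, TGACGTCA for CRE, CACGTG for the E-box, GGGCGG for KLF and SP, GCGCATGCG for NRF1, CCAAT for NFY, GAAANNGAA for IRF, TTCNNNGAA for STAT factors, TTANGTAA for PAR bZIP and AAGATGGC for YY1. In the Abcg2 promoter both KLF and SP matches stand end to end, and that window also holds an IRF and an NFY match, while the Arhgef3 window holds none of the 13 motifs. Over the 59 promoters in the 513 regions, the KLF and SP letters were found in 52.5%, against 65.4% of promoters in any called region and 35.9% of all 32585 promoters. The NFY letters stood in 32.2%, against 38.4% and 37.6% in those sets, and the IRF letters in 11.9%, against 6.95% and 8.52%. The CRE, PAR bZIP and YY1 letters were in 0 of the 59, where they stood in 3.35%, 1.31% and 4.42% of promoters in any called region and in 1.81%, 2.25% and 2.75% of all promoters. The median GC content was 61.3% in the 59 promoters, 61.3% in promoters of any called region and 53.0% over all promoters, with a median of 20, 21 and 7 CG pairs in those sets, so in base composition the 59 were close to other called promoters. Among the windows printed, that of Pmpca had 55 CG pairs, that of Arid1b 42 and that of Arhgef3 5.

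Peaks were ranked within each list by the deposited peak score, which for the caller used is the area under its significance curve, and given as a percentile from 0 (weakest) to 100. The 513 regions were weak peaks in young post HSCs. Their median percentile was 13.8, 11.9, 14.5 and 14.7 in young post libraries 1 to 4, against 58.6, 56.1, 57.0 and 57.9 for the 26487 other regions called in all 4. The median over the 4 libraries was 13.6 for a typical one of the 513, with the middle 80% from 6.13 to 25.9 and extremes of 1.96 and 61.7. It lay under the 25th percentile at 455 of them (88.7%) and above the 50th at 3. The lowest score in these lists was 200, and the median score of the 513 was 266, 256, 269 and 269 in the 4 young post libraries. A score of at least 400 was reached in all 4 young post libraries by 6 of the 513, against 18964 of the other 26487. A typical one of the 513 also spread over 12.9 percentile points between its lowest and its highest young post library.

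Rank changed in steps with the number of old post libraries that called a region. Among the 27000 regions called in all 4 young post libraries, the median percentile was 13.6 where no old post library called, 17.0 at the 1519 regions with 1 old call, 26.1 at the 3947 with 2, 44.3 at the 8131 with 3 and 79.1 at the 12890 with 4. The regions just outside the rule were thus close in rank to those inside it: 668 regions called in 3 young and no old post library had a median percentile of 8.83. At the 1519 regions with 1 old call, that call came from old post 3 at 1293, from old post 2 at 191, from old post 1 at 35 and from old post 4 at 0, in the order of their list lengths, and its own median percentile was 12.7. No cause of the old post absence was tested.

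**Figure D1:**
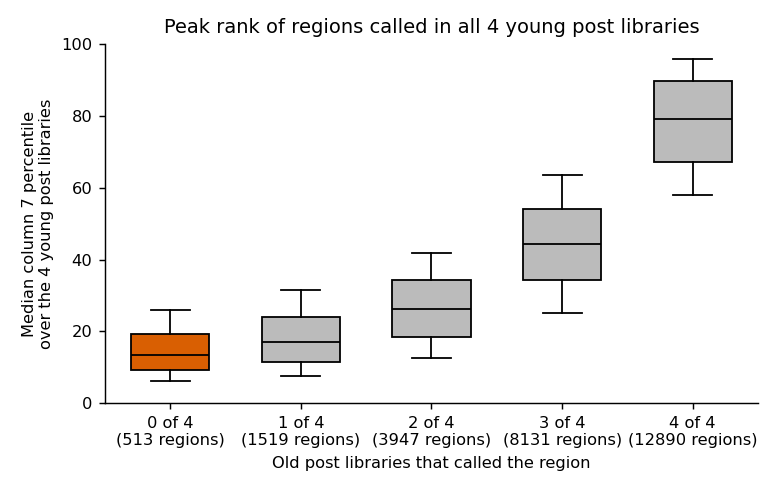
Median percentile of the peak score over the 4 young post libraries (y axis, 0 weakest) for regions called in all 4 of them, by the number of old post libraries that called the region (x axis). Boxes span the quartiles with the median as a line and whiskers run from the 10th to the 90th percentile of regions; the 513 regions with no old call (orange) have a median of 13.6, against 79.1 where all 4 old post libraries called.

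Membership depended on the ends of the lists. When every list was shortened to its best 14008 peaks, the length of the shortest post list, 46 regions met the rule and 0 of them were among the 513. With only scores of at least 400 kept, 375 met it, of which 6 were among the 513. Without old post 3, the longest old post list, 1806 regions met it, and without young post 2, 799 did. Within the transposition days given in the labels, day 5 held old post 3 and young post 1 and 2, where 705 regions were called in the old and neither young library and 1331 the other way round. Day 6 held old post 4 and young post 3 and 4, where 6 regions were called in the old and neither young library and 15650 the other way round. Counting only the old post libraries of those shared days, 853 regions met the rule. The other old post libraries, 1 and 2, were transposed on a day with no young library, so age and day cannot be told apart for them. Among the 1560 regions called in exactly 4 of the 8 post libraries, the 4 young ones made up 513 (32.9%), and the next most frequent sets, each of old post 3 with 3 young libraries, made up 186, 175 and 168.

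The rule did not use the pre calls, though pre and post libraries stem from the same donors. Pre peaks did enter the merging that formed the regions. A pre peak that joined a young post peak to an old post peak took that region out of the rule, and such cases were not counted. The 513 regions were called seldom before transplantation. Old pre libraries 1 to 4 called 63, 117, 3 and 0 of them (12.3%, 22.8%, 0.585% and 0%), and young pre libraries 1 to 4 called 195, 62, 21 and 0 (38.0%, 12.1%, 4.09% and 0%). The shares overlap widely between the ages: young pre 1 was highest, old pre 2 came next, and the shortest list of each age called none. The mean share was 8.92% ± 10.8 in old pre and 13.5% ± 17.1 in young pre libraries (SD, n = 4 each), a difference of -4.63 percentage points that is smaller than either SD. Over all regions the shares were 55.5% and 56.2%, a difference of -0.69 points, and over the other regions called in all 4 young post libraries 64.4% and 67.9%, a difference of -3.58 points. The difference at the 513 regions rests on young pre 1: without it, the sign turned, to 3.53 points.

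List lengths set how many calls a library can make, so the calls were set beside those of a model with 1 call propensity per library. It was fitted to the calls at all regions and given each region's number of pre calls. A propensity takes in all that changes calling in a library, age and day included, and is the same for weak and strong regions. Old pre libraries 1 to 3 called 63, 117 and 3 of the 513 regions where 102, 176 and 4.12 followed from the model. Young pre libraries 1 to 3 called 195, 62 and 21 where 131, 26.4 and 21.0 followed. Old pre libraries thus made 39.7% of the 461 pre calls at the 513 regions, where the model gives 61.2%. The share was 48.6% at the 26487 other regions called in all 4 young post libraries, where the model gives 48.9%. It was also below its model value at the regions just outside the rule. It was 49.4% with 58.6% from the model at regions with 1 old call, and 45.3% with 61.4% at regions called in 3 young and no old post library. Old pre 1 and 2, the libraries with the largest shortfall, were transposed on a day with no young library, so age and day cannot be told apart there. Post and pre libraries shared no transposition day, so stage and day cannot be told apart either.

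**Figure D2:**
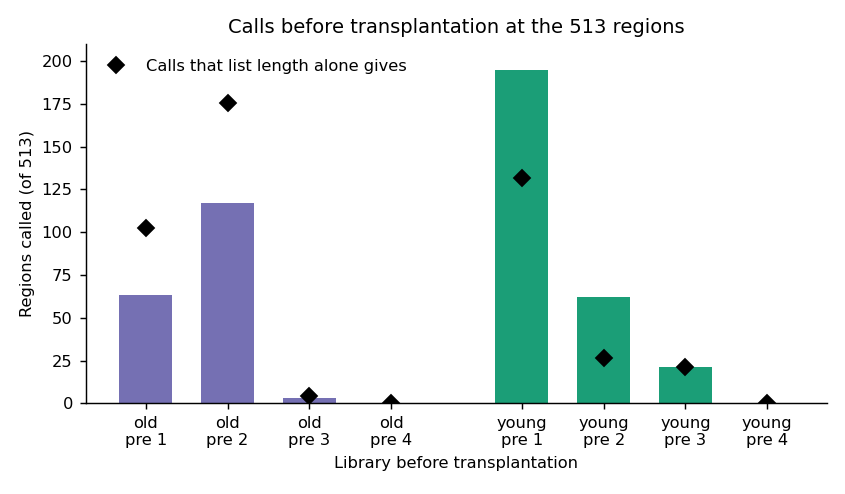
Number of the 513 regions called in each library before transplantation (bars, old purple, young green). Diamonds, labelled as list length in the picture, give the number from the model with 1 call propensity per library. Old pre 1 and 2 lie below their diamonds (63 and 117 calls), young pre 1 and 2 above theirs (195 and 62), and library 4 of each age called none.

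No pre library called 251 of the 513 regions (48.9%), against 3038 (8.995%) of all regions and 3.598% of the other regions called in all 4 young post libraries. A single pre library called 133 (25.9%, against 8.03% of all regions), and 50 (9.75%, against 71.3%) were called in at least 3 of the 8. None was called in more than 5, whereas 15.6% of all regions were called in all 8. By age, 49 (9.55%, against 10.1% of all regions) were called before transplantation in old libraries only, 119 (23.2%, against 5.44%) in young libraries only and 94 (18.3%, against 75.4%) in both. Of the 119, 87 were called in young pre 1 alone, against 1138 of the 1837 such regions among all. Of the 49, 25 were called in old pre 2 alone, against 1069 of the 3417 such regions among all. For each age, most of these regions of the 513 were thus called in 1 and the same library. The regions with no pre call had a median young post percentile of 12.9, those with 1 to 3 pre calls 13.7, 14.5 and 13.7, those with 4 17.6 and those with 5 21.4. In the pre libraries that called them they were again near the end of the list, with median percentiles of 8.64, 13.1 and 6.83 in old pre 1 to 3 and 14.8, 11.1 and 7.77 in young pre 1 to 3.

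**Figure D3:**
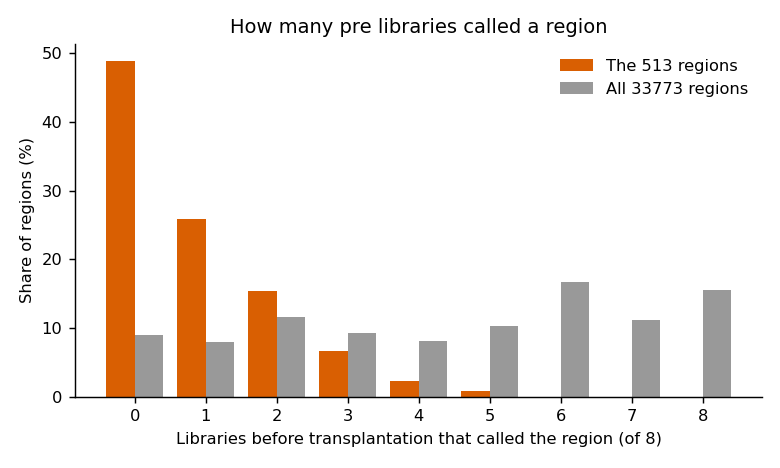
Share of regions (%) by how many of the 8 libraries before transplantation called them, for the 513 regions (orange) and all 33773 regions (grey). No pre library called 48.9% of the 513 regions, against 8.995% of all regions, and no region of the 513 was called in 6 or more.

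Single regions were tested between old pre and young pre libraries with a two-sided exact test that weights libraries by their call propensity. It covered the 9407 regions called in 3 to 5 pre libraries. After Benjamini-Hochberg adjustment 0 regions passed (0%), and 215 had an unadjusted p under 0.05 (2.29%). Of the 513 regions, only the 50 called in 3 to 5 pre libraries could be tested; 0 passed the adjustment and 4 had an unadjusted p under 0.05. Limma on the logit of the percentile, over 24078 regions called in at least 3 pre libraries, also called 0 (0%). It had 218 at an unadjusted p under 0.05 (0.905%) and named the same 4 of the 50. Limma reads the same calls, with uncalled libraries set to 0.5 times the smallest percentile. The tests are thus not independent, and logit differences of regions called at 1 age only depend on that set value. Of the 4, 1 region was higher in old pre, where the shares over all tested regions were 1.35% by the exact test and 0.536% by limma. The other 3 were higher in young pre, where those shares were 0.935% and 0.37%. In the exact test 34 of the 50 leaned to young pre, as did 63.3% of all tested regions.

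The single region higher in old pre lies 98795 bp from Ptpn1, which encodes a tyrosine phosphatase that acts on the insulin receptor and Jak2, at chr2:167831100-167831955. Its percentile was 18.6, 28.4 and 6.83 in old pre 1 to 3, with no call in old pre 4 or in any young pre library, and 10.2, 16.8, 16.9 and 10.5 in young post 1 to 4. The difference, old minus young, was 6.80 ± 2.19 on the logit scale (SE, limma, unadjusted p = 0.0157, adjusted p = 1), and the exact test gave p = 0.0107 (adjusted p = 0.467). The calls at this region ran opposite ways before and after transplantation. The post calls are fixed by the rule, however, and the pre difference did not pass the adjustment, so a reversal was not tested. The 3 regions higher in young pre lie at Plekha2, Mctp1 and Kctd20, were called in young pre 1 to 3 and in no old library of either stage, and each had p = 0.00337 in the exact test (adjusted p = 0.36).

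Plekha2, which encodes a pleckstrin-homology adaptor that binds phosphoinositides, had the top-ranked of the 513 regions, within the gene at chr8:25051793-25053194. Its percentile was 44.0, 52.3, 71.1 and 72.1 in young post 1 to 4 (mean 59.9 ± 14.0, SD, n = 4) and 58.2, 22.9 and 26.5 in young pre 1 to 3. The limma difference before transplantation was -7.58 ± 2.41 (SE, logit scale, unadjusted p = 0.0146, adjusted p = 1). The gene holds a second of the 513 regions, at chr8:25090941-25091550, with percentiles of 12.8, 25.4, 24.6 and 26.1 in young post and no pre call, and 4 of the 6 regions at the gene were called in an old post library. Mctp1, which encodes a membrane protein with calcium-binding C2 domains, had its region near an end of the gene at chr13:76383790-76385410. There the percentile was 23.1, 46.1, 53.6 and 43.8 in young post and 65.9, 0.182 and 29.8 in young pre 1 to 3, so the young pre 2 peak was among the weakest of its list. The region 1227 bp from Kctd20, at chr17:28950821-28951209, was weak throughout, at 8.12, 3.98, 17.0 and 13.0 in young post and 20.7, 7.66 and 7.77 in young pre 1 to 3.

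Some of the highest-ranked of the 513 regions were called after transplantation only. The region 11737 bp from P4ha2, which encodes a subunit of collagen prolyl hydroxylase, had percentiles of 47.4, 49.9, 50.1 and 53.9 in young post (chr11:54088342-54089187) and no pre call of either age. The region within Abcc4, which encodes an exporter of cyclic nucleotides and drugs, had 43.9, 44.8, 44.7 and 53.5 and no pre call. These 2 regions hardly varied between young post libraries, with SDs of 2.67 and 4.56 points. Trmt61a, whose product methylates transfer RNA, had a region at 46.3, 5.24, 26.5 and 58.5, which shows the opposite, an SD of 23.3 points with no pre call. The regions at Ralgps1, which encodes an exchange factor for Ral, and at 4933424G06Rik also lacked a pre call, with median young post percentiles of 35.6 and 35.9.

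Other high-ranked regions had been called before transplantation in 1 library of each age. S1pr5, a receptor for sphingosine 1-phosphate, had 48.5, 38.7, 51.1 and 44.2 in young post, 13.1 in old pre 2 and 34.5 in young pre 1. Rcsd1, which binds the actin-capping protein, had 39.4, 47.0, 44.9 and 41.5 in young post, 1.83 in old pre 1 and 36.7 in young pre 1. Both were ranked lower in the old pre than in the young pre library that called them. Ly86, which encodes the partner of the B cell surface protein Cd180, had 31.7, 28.5, 44.8 and 53.3 in young post, 41.3 in old pre 2 and 36.6 in young pre 2, so there the old pre rank was the higher one. The region of B4galnt2, a glycosyltransferase gene, was the steadiest of the high-ranked ones at 42.1, 41.0, 43.9 and 42.0 in young post, with young pre 1 as its only pre call at 35.5. The region 9777 bp from Zfp956, which holds the start site of the non-coding gene Zfp783, had 46.4, 41.5, 5.16 and 42.4 in young post, 11.1 in old pre 1 and 35.3 in young pre 1.

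Actb, the beta-actin gene, had the widest of the 513 regions, 4821 bp at chr5:142898773-142903593, which reaches 1 end of the gene (142903115 to 142907976). Its percentile was 5.29, 58.8, 59.1 and 51.5 in young post, 85.9 in old pre 3 and 90.7, 86.6 and 96.8 in young pre 1 to 3. The region at the rest of the gene, from 142903669 to 142908595, was called in all 16 libraries. The Actb region is thus a flank of chromatin that was open in every library. In the pre libraries that called it, it ranked higher than in young post libraries. Old pre 1, 2 and 4 and young pre 4 did not call it. Of the 513 regions, 61 (11.9%, against 90.8% of all regions) lay within 500 bp of an old post peak. The rule itself leaves out any region that overlaps an old post peak, so the low share follows largely from it.

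The regions called in the most pre libraries, 5 each, were those at Arid1b, Entr1, Frs2 and Phactr2, and another 12, the Actb region among them, were called in 4. The Arid1b region, at the promoter printed above of this subunit of the BAF chromatin remodelling complex, had 50.3, 6.42, 29.7 and 42.2 in young post, 22.3 and 26.4 in old pre 1 and 2, and 49.1, 3.52 and 1.54 in young pre 1 to 3. The Entr1 region, which also holds the divergent start site of Pmpca, a mitochondrial processing peptidase subunit, had 27.3, 15.1, 28.1 and 29.7 in young post. Before transplantation it had 22.0, 7.51 and 4.76 in old pre 1 to 3 and 42.0 and 4.34 in young pre 1 and 3. These 2 promoter regions were called before transplantation at both ages, and were not called in any old post library. Frs2, an adaptor of fibroblast growth factor receptors, had 16.8, 13.2, 24.1 and 10.3 in young post, 25.4 and 38.6 in old pre 1 and 2, and 14.3, 29.2 and 15.2 in young pre 1 to 3. The Abcg2 promoter region, chosen after its values were seen, had 17.0, 7.22, 13.5 and 26.9 in young post, 10.3 in old pre 2 and no young pre call.

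**Figure D4:**
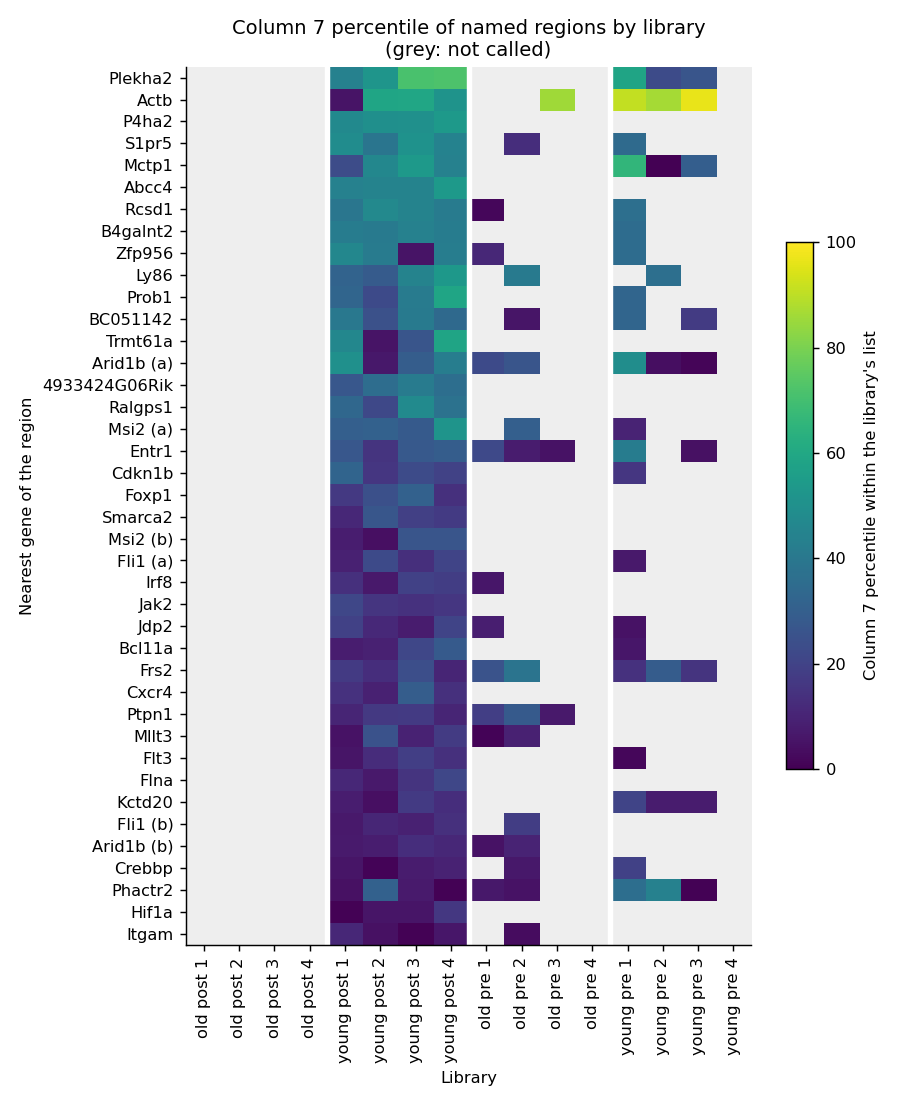
Percentile of the peak score within each library's list (colour, 0 to 100; grey, not called) for named regions of the 513 (rows, by nearest gene, ordered by median young post percentile; a and b mark separate regions of a gene) in the 16 libraries (columns). Old post columns are empty by the rule, and most cells before transplantation are empty too, with Actb standing out at 85.9 in old pre 3 and 90.7, 86.6 and 96.8 in young pre 1 to 3.

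The regions lay away from gene ends more often than regions in general. Of the 513, 93 (18.1%) were within 1 kb of either end of a protein-coding gene, against 36.7% of all regions and 17.0% of the regions with 1 old post call. Another 244 (47.6%, against 36.3% of all regions) were within genes, 160 (31.2%, against 23.5%) outside genes and 16 (3.12%, against 3.48%) beyond 100 kb from any. Their median width was 507 bp, against 983 bp for the other regions called in all 4 young post libraries and 536 bp for regions with 1 old post call. In place and width they were thus close to the regions with 1 old post call. The gene-end regions of the 513 were called before transplantation at 12.1% in old pre and 23.7% in young pre libraries, a difference of -11.6 points. That is smaller than the SD between libraries over all 513 regions, 14.3 points pooled over the ages. The difference over all 513 also turned sign without young pre 1, and the same shares for other gene-end regions are not given. Of the gene-end regions, 23.7% had no pre call. Those outside genes were called at 7.97% in old pre and 8.91% in young pre libraries, and 60.0% had no pre call. The median young post percentile was 14.0 at gene ends and 13.4 outside genes. Chromosome 2 held the most, 51, or 1.91% of its regions, and X the fewest, 4, or 0.656% of its regions.

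**Figure D5:**
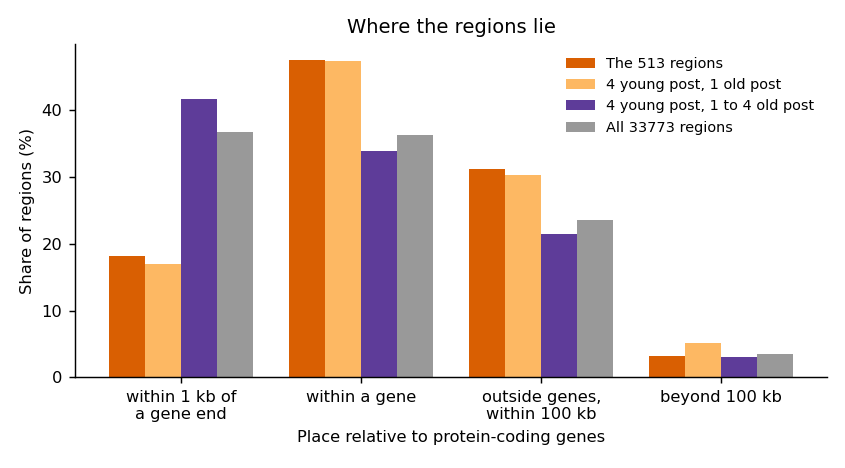
Share of regions (%) by place relative to protein-coding genes, for the 513 regions (orange), regions called in all 4 young post and 1 old post library (light orange), in all 4 young post and 1 to 4 old post libraries (purple), and all 33773 regions (grey). Of the 513, 18.1% lie within 1 kb of a gene end, against 36.7% of all regions, close to the 17.0% of the regions with 1 old post call.

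Of the 513 regions, 497 lay within 100 kb of 472 genes, so most genes had 1, while 23 genes had 2 or more. Cradd, which encodes an adaptor of caspase-2, and Nfatc2, a calcium-dependent transcription factor gene, had 3 each. The Cradd regions had young post percentiles of 2.61, 27.7, 32.2 and 31.5, of 28.2, 23.3, 29.6 and 31.4, and of 29.1, 18.5, 5.57 and 23.0, none with a pre call, and 9 of the 14 regions at the gene were called in an old post library. The Nfatc2 regions had 20.4, 25.9, 28.9 and 30.1, then 28.9, 24.6, 23.9 and 29.5, then 12.2, 5.95, 19.7 and 30.1, and 1 of them had a pre call of each age. At both genes these were a minority of the regions there. Arhgef3, which encodes a guanine nucleotide exchange factor, had a region at the promoter printed above with 29.97, 34.7, 31.4 and 32.7 in young post and no pre call, and 11 of the 14 regions at the gene were called in an old post library.

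Genes of 13 lists of HSC and blood biology held 22 of the 513 regions among their 1331 regions (1.65%), close to the 1.52% of all 32598 regions near genes. Among HSC identity factors, 5 of 226 regions (2.21%) belonged to the 513, at Msi2, Fli1 and Mllt3. Msi2, an RNA-binding protein gene of HSC self-renewal, had 30.3, 31.0, 28.2 and 51.9 in young post at a region 9418 bp from the gene, 30.3 in old pre 2 and 10.1 in young pre 1, and a second, weaker region without a pre call. Fli1, an ETS factor gene, had 2 weak regions with median young post percentiles of 16.9 and 9.997. The region in Mllt3 was called before transplantation only in old pre 1 and 2, at 0.879 and 9.35. Each of these genes had further regions that old post libraries called, 14 of 19 at Msi2, 9 of 12 at Fli1 and 4 of 6 at Mllt3.

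Among chromatin regulators, 5 of 138 regions (3.62%) belonged to the 513. They included 2 at Arid1b and 1 each at Smarca2, an ATPase of the BAF complex, and at Crebbp, a histone acetyltransferase, with median young post percentiles of 35.9 and 9.67 at Arid1b and 6.82 at Crebbp, and with 26.7 as the highest of the 4 values at Smarca2. Among myeloid factors, 3 of 83 (3.61%) did, at Irf8 (15.99), which drives monocyte and dendritic cell fate, at Jdp2 (15.6) and at Itgam (5.23), the CD11b gene. Among lymphoid factors 2 of 129 (1.55%) did, at Foxp1 (20.5) and Bcl11a (15.3), and among cytokine signalling genes 2 of 130 (1.54%), at Jak2 (15.6), the kinase of the thrombopoietin receptor, and Flt3 (13.2). Of the regions of these 4 lists, the one at the Arid1b promoter alone had a median above the 25th percentile. The single region of the surface and niche genes was 39212 bp from Cxcr4 (14.1), the receptor that retains HSCs in marrow, with 94 regions in the list (1.06%). The cell cycle list had 1 of 81 (1.23%), near Cdkn1b (21.3), the quiescence inhibitor p27, the cytoskeleton list 2 of 89 (2.25%), at Actb and Flna (13.1), and the metabolism list 1 of 96 (1.04%), near Hif1a (5.71). The erythroid and megakaryocyte list with 57 regions, the AP-1 and immediate early list with 101, the inflammation and interferon list with 60 and the list of genes reported as higher in old HSCs with 81 held 0 of the 513. The counts per list are small, and no list was tested against the rest.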

How the data were processed

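ATAC-seq peak lists of 16 libraries were used. Per the submitters' processing notes, the authors' tools included FastQC, MultiQC, Trim Galore, cutadapt, Genrich, ChIPseeker, featureCounts and DESeq2, on build mm10. Settings, versions and the aligner are not given in the sources. The deposited lists, 1 per library, hold a score per peak in column 7 and -log10 q values in column 9, none normalised between libraries. Of 387029 peaks, 393 on other sequences were left out. Genes and promoters came from RefSeq tables of GRCm38, without strand for gene spans, so a gene end is either end.

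Calls were compared by an exact test conditional on a region's number of calls, with library weights from a Rasch model. Percentiles were compared with limma 3.58.1 (R 4.3.3) on the logit, with uncalled regions at 0.5 times the smallest percentile. Both were run on simulated data, drawn for limma without uncalled regions and for the exact test from its own fitted model. Those runs thus do not show how limma handles uncalled regions. Both use a threshold of 0.05 on adjusted p. The rest used Python 3.11.15 (scipy 1.17.1, numpy 2.4.6, pandas 2.3.3), and figures matplotlib 3.10.9. The regions and gene lists were chosen with earlier results of these data known. Regions take the name of the closest protein-coding gene up to 100 kb away, and those named were the 15 of highest young post percentile, those with a difference of 3 or more calls between ages before transplantation, the 5 with most and 5 with no pre calls, all at listed genes, and the 5 genes with most regions. Labels call the libraries separate samples, and the limma p-values cover the spread between them. That spread is between single donors in old and between donor pools in young libraries. The exact test takes calls as independent given the library weights and estimates no spread. Alternatives changed merging, list length, score threshold, overlap, distance, day, filter, test and each replicate. The result of 1 gene is not reported here.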

Additional observations from a re-analysis of the deposited data

Results flagged for a closer look

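In 7 of 50 named regions, 1 young post library stood apart from the other 3 in percentile of the peak score. It was the lowest at Actb (5.29 in young post 1), Zfp956 (5.16 in young post 3), Entr1 (15.1 in young post 2), 1 Cradd region (2.61 in young post 1) and the weaker Plekha2 region (12.8 in young post 1). It was the highest at Abcc4 (53.5 in young post 4) and the stronger Msi2 region (51.9 in young post 4). Chance marks about 1 in 20 such groups, and several of these regions share libraries. In peak number and the shares called, 0 of 11 groups of libraries had such a library.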

How the results depend on the processing

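The count of 513 regions was 506 with peaks merged within 100 bp, 645 when peaks had to cover most of a region (440 shared with the 513) and 452 without regions within 500 bp of an old post peak. It was 375 with scores of at least 400 (6 shared) and 853 with only the old post libraries of shared days. With lists shortened to the shortest post list, which is also the third shortest of all, it was 46 (0 shared). Leaving out 1 library gave 513 to 1806; leaving one out can only loosen the rule. The difference in pre share of -4.63 points was -22.3 with shortened lists, which hold other regions, -17.8 within day 2 and -6.17 without both pre libraries numbered 4, an alternative chosen after seeing the data. Leaving out 1 library gave -9.26 to 3.53; the sign turned without young pre 1, and the cause was not tested. The median percentile of 13.6 was 13.2 by column 9 and 11.9 to 12.9 with 1 young post library left out. The share at gene ends was 14.2% within 500 bp (all regions 33.4%) and 24.2% within 2 kb (41.7%).

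The exact test called 0 regions under every alternative run, as did Fisher's exact test and limma on presence, each run once. The smallest p was 0.143 for Fisher's exact test and 0.0731 for the weighted exact test within day 2. Both lie above the threshold of 0.05, so no region could have passed the adjustment there. With the block, the smallest p of the weighted exact test was 0.0246, which can pass only if many regions reach it. There 167 of 9407 regions had an unadjusted p under 0.05. Limma on percentiles called 0 of all regions and 0 of the 513 as reported. It called 19 of all regions with shortened lists, 1 of them among the 46 that then met the rule. It called 3093 of all regions and 8 of the 513 within day 2, where the old lists are the shorter, and 197 and 3 without both libraries numbered 4. Leaving out 1 library gave 0 to 124 of all regions (124 without old pre 4, 74 without young pre 4) and 0 to 2 of the 513.

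The sources do not say if old and young libraries were matched by their numbers. Deviations of same-numbered pre libraries correlated at -0.05, -0.06, 0.22 and 0.18. Those of differently numbered old and young pre libraries correlated at -0.425 to 0.356, so the same-numbered values lie within that range. Old pre 3 and young pre 3 were also both transposed on day 2, so number and day cannot be told apart there. With the replicate number as a block the difference in share stayed -4.63 points (SD of the 4 pairs 15.3), and both tests called 0. Calls near the end of a list, unknown depth and lists of 5711 to 32557 peaks limit every comparison.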
